A study of Homo sapiens with 15 samples.

Results

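The genes of DNA replication and of entry into S phase were described in HK-2 cells, a human cell line derived from the epithelium of the renal proximal tubule. The set holds 46 genes, named one by one and grouped by the complex or step they serve, and all 46 were found by symbol among the 24880 loci of the deposited table. The genes were not chosen by a threshold on these values, but they were chosen with earlier results of these data known. All 46 also passed the filter on low values, which kept 12467 loci.

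Replication of the genome is prepared in G1, when the origin recognition complex, CDC6 and CDT1 load the MCM helicase onto DNA. At the start of S phase CDC45 and GINS join the helicase, and polymerases, a sliding clamp and nucleotide-producing enzymes carry out synthesis. Many of these genes are activated by E2F factors, which RB holds back until cyclin-dependent kinases act on it, and TGF-beta is known as a signal that stops many epithelial cells in G1. HK-2 cells were immortalised with papillomavirus E6 and E7, and since E7 binds RB, the line is a limited model of this control.

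The 15 libraries of polyadenylated RNA fell into 5 groups of 3. Mock cells (0 h) were given PBS. TGFb at 2 ug/ml was applied for 1 h or 12 h, in 1 arm with the DMSO vehicle and in the other with FT895, which inhibits the histone deacetylase HDAC11. All cells were wild type, and how much FT895 was used is not stated in the labels. The mock group differs from the TGFb groups in time and in vehicle as well as in TGFb. No vehicle group without TGFb was analysed here at 1 h or 12 h, and no group received FT895 alone. TGFb, time in culture and (against mock) vehicle therefore cannot be told apart. Whether replicate libraries are separate cultures is not stated either, and every p therefore reflects no more than the spread among these libraries.

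The unit is FPKM, which divides fragment counts by the length of the transcript and by the size of the library, and the read depth behind it is unknown. Summed FPKM ran from 386532 to 434520 per library, and 11712 to 12023 loci reached 1 FPKM. Replicate 1 of TGFb 1 h stood apart, with a residual SD of 0.211 on the log2 scale against 0.107 to 0.156 in the other 14 libraries. Among markers of proximal tubule cells PAX8, MME and GGT1 passed the filter, and LRP2 and SLC22A6 were listed at 0 in every library. Of the 6 epithelial markers 5 passed, with sums of 571 to 787 FPKM, while CDH1 was listed at 0. Sums were 5.39 to 10.9 FPKM for 6 fibroblast markers, 0 to 0.0686 FPKM for 5 endothelial markers and 33.0 to 46.5 FPKM for 5 leukocyte markers, of which only CD68 passed.

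Promoter sequence is shown for 8 of the genes that the results turn on, because 20 of the 39 promoter windows found for the set carry letters of the kind that E2F factors bind, and the 8 include genes with and without them. The sequences are RefSeq windows on GRCh38.p14, written 5′ to 3′ on the strand of the gene, each 100 bases long. Capitals mark the letters TTTCCCGC, TTTCGCGC, TTTGCCGC or TTTGGCGC, read on either strand, and matches may overlap. E2F1 (chr20:33686361-33686460, minus strand), E2F2 (chr1:23531209-23531308, minus), MCM2 (chr3:127598336-127598435, plus), MCM3 (chr6:52284718-52284817, minus) and PCNA (chr20:5126598-5126697, minus) hold matches from 75 bases before to 24 after the start of transcription. MCM6 (chr2:135876519-135876618, minus) is shown from 175 to 76 bases before it. RRM2 (chr2:10122664-10122763, plus) and SLBP (chr4:1712295-1712394, minus) hold none of these 4 words, and are shown from 75 bases before to 24 after.
E2F1: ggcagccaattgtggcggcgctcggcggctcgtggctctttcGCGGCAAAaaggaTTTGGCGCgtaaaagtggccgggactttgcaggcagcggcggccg
E2F2: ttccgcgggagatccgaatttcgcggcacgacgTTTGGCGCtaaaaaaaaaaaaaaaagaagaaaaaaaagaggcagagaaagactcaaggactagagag
MCM2: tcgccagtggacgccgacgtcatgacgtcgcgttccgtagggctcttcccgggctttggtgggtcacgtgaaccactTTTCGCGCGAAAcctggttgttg
MCM3: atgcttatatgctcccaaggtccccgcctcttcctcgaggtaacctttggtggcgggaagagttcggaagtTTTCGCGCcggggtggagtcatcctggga
PCNA: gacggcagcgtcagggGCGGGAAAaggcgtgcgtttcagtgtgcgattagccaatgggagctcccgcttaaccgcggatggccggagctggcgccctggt
MCM6: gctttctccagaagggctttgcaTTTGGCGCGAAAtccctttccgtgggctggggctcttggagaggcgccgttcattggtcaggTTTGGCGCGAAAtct
RRM2: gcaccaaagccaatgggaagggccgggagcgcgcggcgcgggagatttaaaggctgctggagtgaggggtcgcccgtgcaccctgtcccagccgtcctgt
SLBP: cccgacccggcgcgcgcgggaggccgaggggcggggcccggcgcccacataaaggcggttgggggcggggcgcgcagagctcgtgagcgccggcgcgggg

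After 12 h of TGFb most replication genes were lower than in mock-treated cells. Of the 46, 35 fell and none rose, beside 24.5% of all 12467 loci that fell and 14.2% that rose, 38.6% called in all (limma on log2(FPKM + 1), Benjamini-Hochberg adjusted p under 0.05 over all loci tested). Of 61 other genes of the same processes, described below, 29 fell and 3 rose. Among the 46 the changes ran from -1.0 to -0.01 on the log2 scale with a median of -0.39, where the median of all loci tested was -0.08. As a share of the mock mean, levels at 12 h ran from 30.9% for E2F2 to 99.2% for RRM1, with a median of 75.5%. Summed over the 46 genes, the level was 2005 ± 16.5 FPKM in mock (SD, n = 3), 2017 ± 87.8 at 1 h and 1509 ± 9.85 at 12 h. With FT895 it was 2022 ± 45.4 at 1 h and 1516 ± 7.47 at 12 h. In bulk RNA a smaller share of cells in S phase and less of these transcripts per cell cannot be told apart. In 32 of the 46 genes all 6 libraries of 12 h lay below all 9 of mock and 1 h, as they did at 14.9% of all loci tested.

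**Figure D1:**
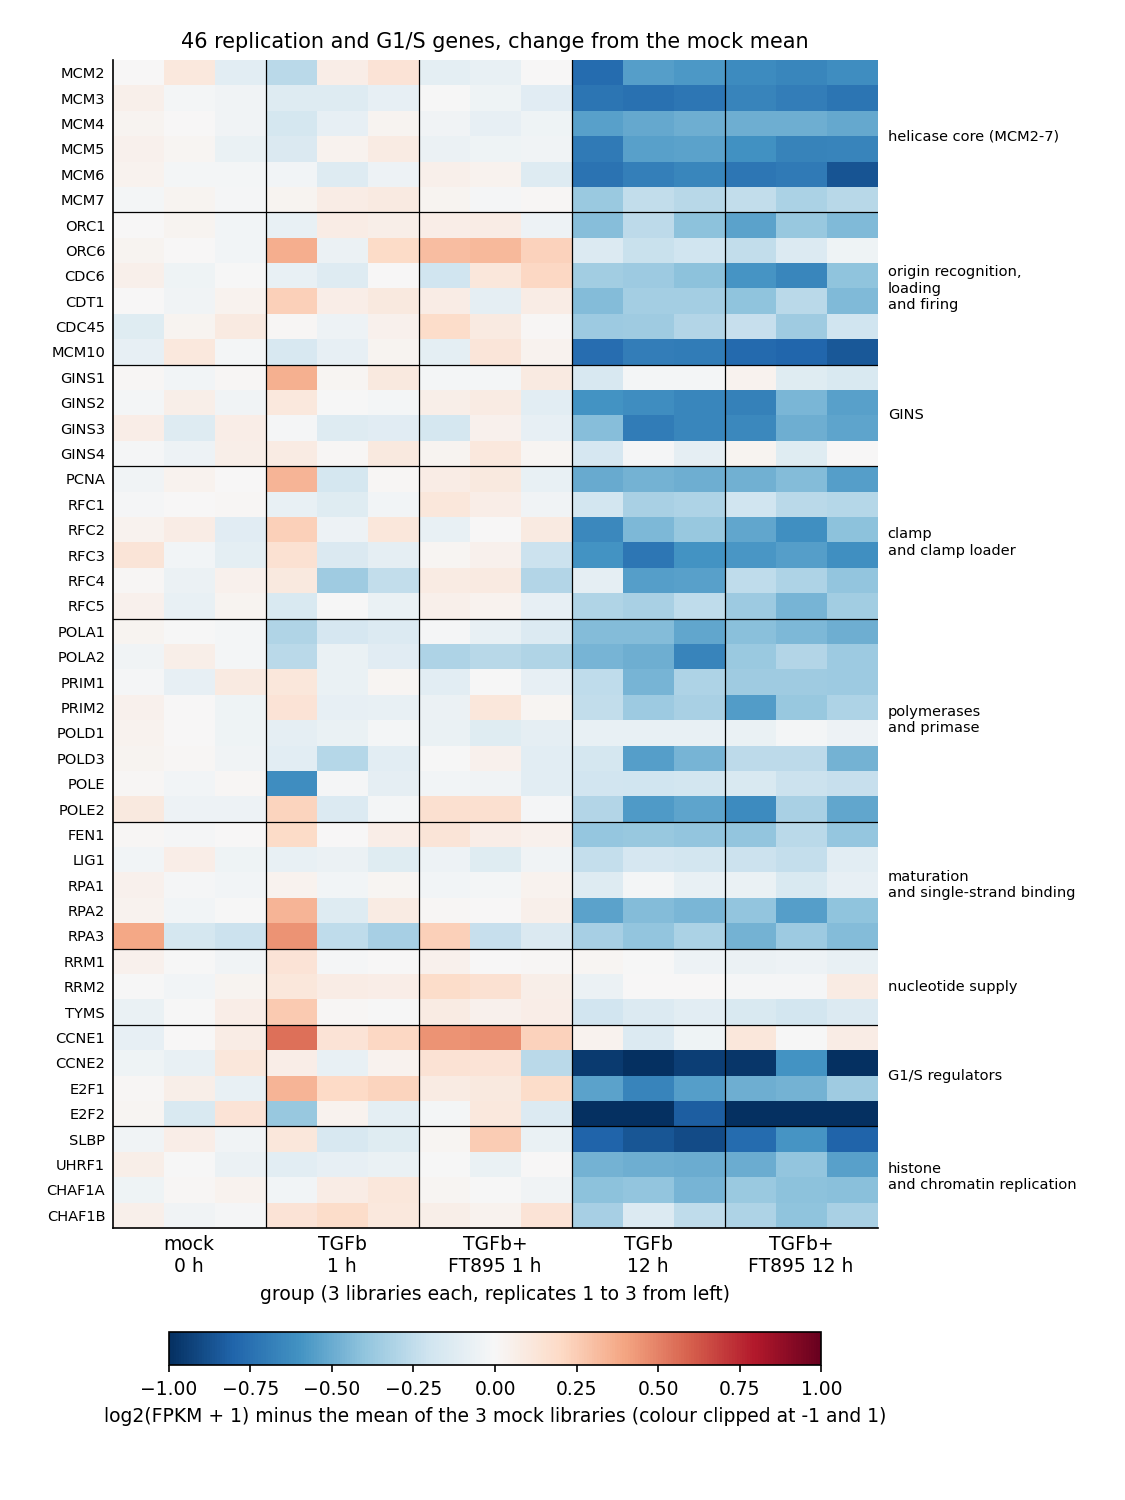
Change of each of the 46 genes (rows, by complex) in each of the 15 libraries (columns, by group), as log2(FPKM + 1) minus the mean of the 3 mock libraries, in colour clipped at -1 and 1. The 6 columns of 12 h are blue in most rows, while RRM1, RRM2, CCNE1, RPA1 and POLD1 stay near white, with 12 h changes against mock of -0.07 to -0.01.

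All 6 subunits of the MCM2-7 helicase, the ring that unwinds DNA at the fork, fell at 12 h, by 0.30 to 0.73 on the log2 scale (median -0.61). MCM3 stood at 107, 102 and 101 FPKM in mock, at 94.5, 94.4 and 97.8 after 1 h of TGFb and at 62.0, 61.2 and 62.1 after 12 h. With FT895 it stood at 103, 100 and 95.3 at 1 h and at 65.0, 63.6 and 62.0 at 12 h. All 6 libraries of 12 h lay below the other 9, with a gap wider than the spread within any group. The 12 h level was 59.7% of mock (log2 change -0.73 ± 0.046, SE; limma adjusted p = 1.18e-08), the most of the 6 subunits. MCM6 went from 60.4, 58.0 and 58.0 FPKM in mock to 34.8, 36.2 and 37.0 at 12 h (-0.69 ± 0.061, limma adjusted p = 4.33e-07). MCM2 went from 94.8, 102 and 87.9 to 55.3, 64.4 and 63.2 FPKM (-0.63 ± 0.092, limma adjusted p = 7.73e-05). In both genes the 12 h libraries lay below every mock library.

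MCM7 was the second most abundant gene of the set and the subunit with the smallest change. It stood at 169, 174 and 170 FPKM in mock, at 174, 180 and 182 at 1 h and at 132, 144 and 141 at 12 h. Its FT895 libraries stood at 174, 170 and 172 at 1 h and at 144, 137 and 141 at 12 h. The 12 h libraries were again lowest, at 81.2% of mock (-0.30 ± 0.047, limma adjusted p = 0.00014). MCM4 and MCM5 fell by 0.51 and 0.59 on the log2 scale.

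**Figure D2:**
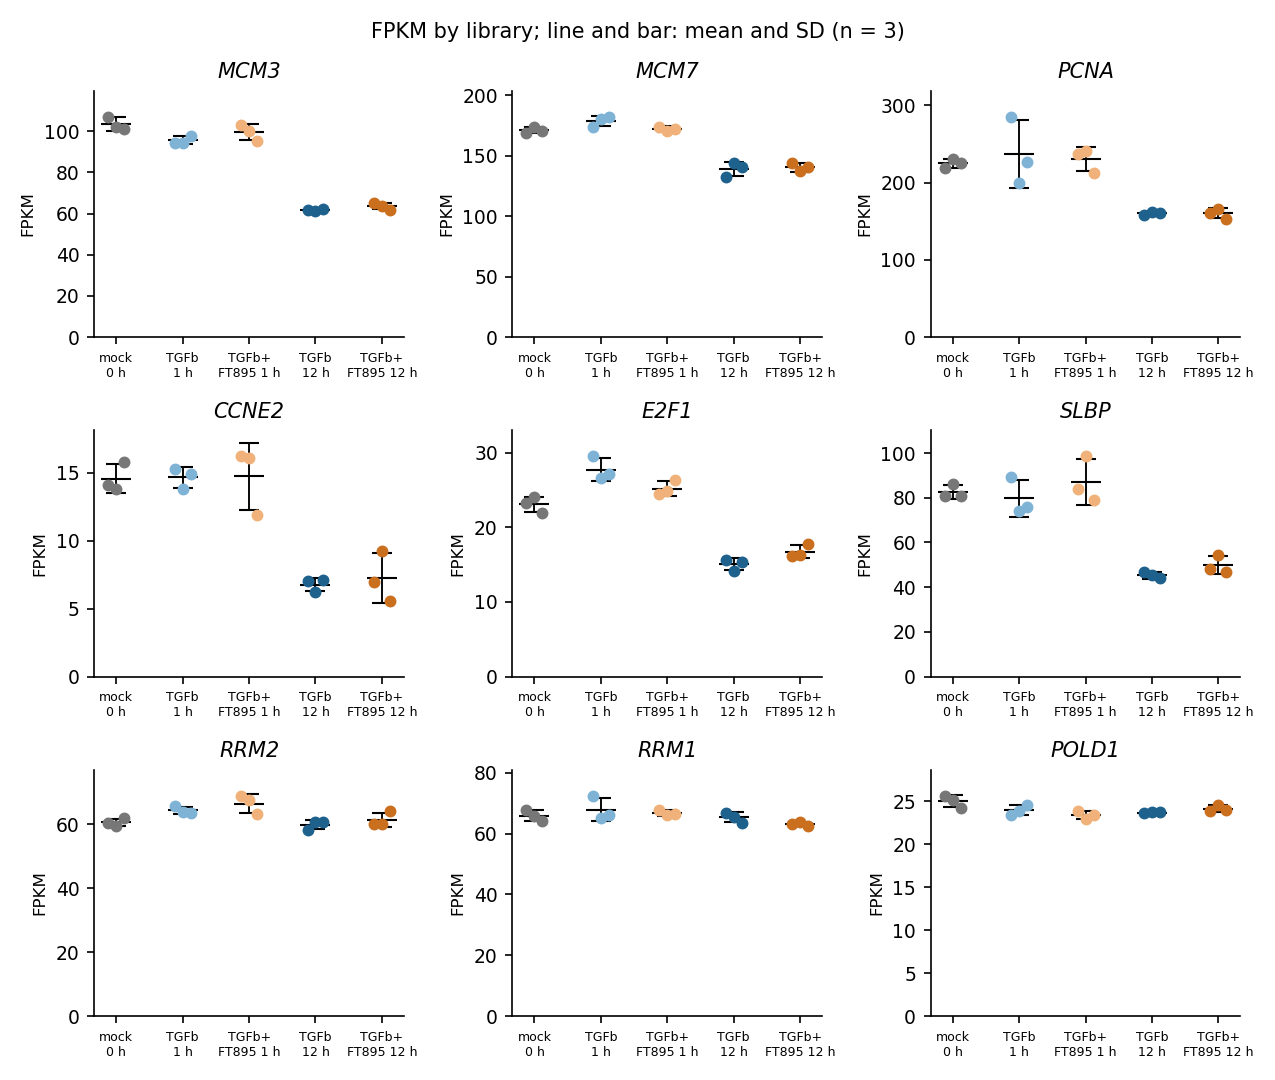
FPKM of 9 genes in each library, by group, with a line and bar for the mean and SD of 3 libraries and every axis starting at 0. MCM3, MCM7, PCNA, CCNE2, E2F1 and SLBP are lower in both 12 h groups, while RRM1, RRM2 and POLD1 hold about their mock level, with 12 h levels of 99.2%, 98.8% and 94.7% of mock.

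Of the 6 genes of origin recognition, helicase loading and firing, 5 fell at 12 h. The largest change was in MCM10, which helps to switch the loaded helicase on. MCM10 stood at 11.3, 13 and 11.9 FPKM in mock, at 10.7, 11.3 and 12.3 at 1 h and at 6.69, 7.08 and 7.04 at 12 h. With FT895 it went from 11.2, 13.2 and 12.4 at 1 h to 6.61, 6.55 and 6.24 at 12 h. The 6 libraries of 12 h were well below the rest, and the 12 h level was 57.6% of mock (-0.71 ± 0.072, limma adjusted p = 1.94e-06). The loading factors CDC6 and CDT1, the origin subunit ORC1 and the helicase partner CDC45 fell by 0.34 to 0.38 on the log2 scale.

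ORC6, the smallest subunit of the origin complex, did not pass the test against mock. It stood at 32.2, 31.5 and 30.8 FPKM in mock, at 40.9, 30.2 and 36.1 at 1 h and at 28.5, 26.8 and 27.3 at 12 h. The 12 h libraries lay below the mock libraries, but 1 library with FT895 at 12 h, at 30.6, lay above the lowest of 1 h. The change was -0.19 ± 0.086 (limma adjusted p = 0.0965), and without replicate 1 or replicate 2 of TGFb 1 h, which enter the shared spread only, the adjusted p was 0.0273 or 0.0281. From 1 h to 12 h ORC6 fell, by 0.35 on the log2 scale with vehicle and by 0.43 with FT895.

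The 4 subunits of GINS, a ring that holds CDC45 on the helicase, moved unequally. GINS2 went from 13, 13.8 and 12.9 FPKM in mock to 8.41, 8.26 and 8.04 at 12 h (-0.62 ± 0.069, limma adjusted p = 5.58e-06). GINS3 went from 15.3, 13.2 and 15.3 to 10.6, 8.57 and 8.89 FPKM (-0.59 ± 0.086, limma adjusted p = 7.33e-05). In both, no 12 h library reached a mock library. GINS1 stood at 23.4, 22.7 and 23.4 FPKM in mock and at 20.6, 22.9 and 22.8 at 12 h, so the groups overlapped (-0.07 ± 0.081, limma adjusted p = 0.548). GINS4 was likewise at 9.53, 9.25 and 10 against 8.41, 9.53 and 8.95 FPKM, with a change of -0.09 and an adjusted p of 0.279. The differences between the subunits' changes were not tested.

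The sliding clamp PCNA, which holds polymerases on DNA, and the 5 RFC subunits that load it all fell at 12 h (median log2 change -0.44). PCNA was the most abundant gene of the set, at 219, 230 and 225 FPKM in mock and at 158, 162 and 160 at 12 h. At 1 h it stood at 285, 199 and 227 FPKM with vehicle, so that replicate 1 was above every other library, and at 237, 241 and 213 with FT895. With FT895 at 12 h it was at 161, 166 and 153. The 12 h libraries were lowest in both arms, at 71.2% of mock without FT895 (-0.49 ± 0.096, limma adjusted p = 0.00103). RFC3 fell most among the loader subunits, from 25.1, 22.5 and 21.3 FPKM in mock to 14.8, 13.5 and 14.8 at 12 h (-0.64 ± 0.088, limma adjusted p = 4.62e-05).

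RFC4 was the least certain of the genes that fell. It stood at 62.2, 59.2 and 63.3 FPKM in mock, at 66.1, 47.9 and 51.6 at 1 h and at 57.7, 41.8 and 41.9 at 12 h, so libraries of 1 h and 12 h overlapped. The change against mock was -0.39 ± 0.135 (limma adjusted p = 0.0323), and RFC4 did not pass from 1 h to 12 h (-0.23, adjusted p = 0.198). The call was lost without mock replicate 1, 2 or 3 (adjusted p = 0.0794, 0.0538 and 0.0869) and without replicate 2 or 3 of TGFb 12 h (both 0.126).

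Among 8 polymerase and primase genes 6 fell. POLA1, POLA2, PRIM1 and PRIM2 make up the complex that starts each new strand with a short primer, and all fell, by 0.32 to 0.54 on the log2 scale. POLD3, an accessory subunit of the lagging-strand polymerase, and POLE2, an accessory subunit of the leading-strand polymerase, fell by 0.39 and 0.46. The catalytic subunits of the same 2 polymerases did not pass the test. POLD1 stood at 25.6, 25.1 and 24.2 FPKM in mock and at 23.6, 23.7 and 23.7 at 12 h, a narrow difference of -0.07 ± 0.045 (limma adjusted p = 0.21).

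POLE stood at 27.1, 26.3 and 27.1 FPKM in mock, at 17.1, 26.6 and 25.2 at 1 h and at 23.4, 23.3 and 23.5 at 12 h. In the FT895 arm it stood at 26.3, 26.1 and 24.9 at 1 h and at 24.0, 23.0 and 22.7 at 12 h. Replicate 1 of TGFb 1 h, the library that stands apart, was far below the other 14. The 12 h libraries lay below mock (-0.19 ± 0.111, limma adjusted p = 0.199), and without that 1 h library the adjusted p was 0.00146. Leaving it out also brought TYMS past the threshold (adjusted p = 0.00496).

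Of 5 genes of strand maturation and single-strand binding 3 fell. FEN1, the nuclease that trims flaps between Okazaki fragments, and RPA2, a subunit of the RPA complex that covers single-stranded DNA, fell by 0.39 and 0.47 on the log2 scale. LIG1, the ligase that seals the fragments, went from 20.8, 22.3 and 20.6 FPKM in mock to 17.8, 18.8 and 18.6 at 12 h (-0.20 ± 0.055, limma adjusted p = 0.0108). That call was lost without mock replicate 2, with an adjusted p of 0.0571. RPA1, the large RPA subunit, stood at 51.2, 49.2 and 48.6 FPKM in mock and at 45.4, 49.0 and 47.1 at 12 h, so the groups overlapped (-0.07 ± 0.048, limma adjusted p = 0.249). RPA3, the small subunit, was at 18.4, 12.1 and 11.8 FPKM in mock and at 10.8, 10.3 and 10.9 at 12 h. Its replicate 1 was also high in both 1 h groups, at 19.2 and 16.5 FPKM, and the change of -0.35 ± 0.19 did not pass (limma adjusted p = 0.169).

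None of the 3 genes of nucleotide supply passed the test against mock. RRM1 and RRM2 form ribonucleotide reductase, which makes deoxynucleotides. RRM1 stood at 67.9, 65.7 and 64.2 FPKM in mock and at 66.9, 65.6 and 63.6 at 12 h, and RRM2 at 60.5, 59.6 and 61.9 against 58.3, 60.8 and 60.7. The groups overlapped in both genes, and the 95% intervals of their log2 changes ran from -0.12 to 0.09. TYMS, thymidylate synthase, stood at 115, 120 and 126 FPKM in mock, at 144, 121 and 120 at 1 h and at 105, 109 and 112 at 12 h. Its change was -0.15 ± 0.064 (limma adjusted p = 0.0759), with every 12 h library below every mock library. From 1 h to 12 h TYMS fell by 0.24 on the log2 scale (limma adjusted p = 0.00896). The highest 1 h value, 144, is from replicate 1, the library that stands apart. Over the alternatives 0 to 1 of the nucleotide genes fell from 1 h to 12 h with vehicle, beside 1805 to 4118 of the 12425 to 21386 loci tested.

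The largest changes of the set were among the regulators of the G1/S step. CCNE2, a cyclin E that activates CDK2, stood at 14.1, 13.8 and 15.8 FPKM in mock, at 15.3, 13.8 and 14.9 at 1 h and at 7.00, 6.22 and 7.09 at 12 h. With FT895 it stood at 16.2, 16.1 and 11.9 at 1 h and at 6.94, 9.27 and 5.55 at 12 h. The 12 h libraries all lay below the rest, at 46.5% of mock with vehicle (-1.0 ± 0.139, limma adjusted p = 4.84e-05). CCNE1, the other cyclin E, stood at 4.44, 4.79 and 5.08 FPKM in mock and at 4.92, 4.25 and 4.58 at 12 h. Those groups overlapped (-0.05 ± 0.102, limma adjusted p = 0.749). At 1 h CCNE1 was at 7.43, 5.32 and 5.67 FPKM, a difference from mock of 0.30 that did not pass (adjusted p = 0.082), and from 1 h to 12 h it fell by 0.35 (adjusted p = 0.0142). The value of 7.43 is from replicate 1, the library that stands apart. Over the alternatives 3 to 4 of the G1/S regulators fell from 1 h to 12 h with vehicle, beside 1805 to 4118 of the 12425 to 21386 loci tested.

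E2F1, an activating E2F factor, was the one gene of the set that was higher than mock at 1 h and lower at 12 h with both calls past the threshold. E2F1 stood at 23.2, 24.1 and 21.9 FPKM in mock, at 29.5, 26.6 and 27.1 at 1 h and at 15.6, 14.2 and 15.4 at 12 h. Its FT895 libraries stood at 24.4, 24.8 and 26.3 at 1 h and at 16.1, 16.3 and 17.8 at 12 h. In the vehicle arm the 3 levels did not overlap, with a 12 h level of 65.3% of mock (-0.58 ± 0.062, limma adjusted p = 3.69e-06). E2F2, another activating E2F, was the least abundant gene, at 2.43, 2.06 and 2.72 FPKM in mock and at 0.677, 0.640 and 0.913 at 12 h. With FT895 at 12 h it was at 0.492, 0.659 and 0.575. All 12 h libraries were under 1 FPKM and all others above it, and the log2 change of -0.96 ± 0.116 (limma adjusted p = 1.19e-05) understates the fold change of a gene this low, since 1 is added to each value.

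All 4 genes of histone and chromatin replication fell. SLBP, which binds the stem-loop of replication-dependent histone mRNAs, stood at 80.8, 86.3 and 80.8 FPKM in mock, at 89.4, 74.0 and 75.9 at 1 h and at 47.0, 45.3 and 43.9 at 12 h. In the FT895 arm it stood at 83.8, 98.5 and 79.0 at 1 h and at 48.0, 54.4 and 46.9 at 12 h. The highest library of 12 h lay well below the lowest of the other 9, and the 12 h level was 54.9% of mock (-0.85 ± 0.087, limma adjusted p = 2.51e-06). UHRF1, which brings the maintenance methyltransferase to new DNA, fell by 0.49 on the log2 scale. The large and middle subunits of the histone chaperone CAF-1, CHAF1A and CHAF1B, fell by 0.42 and 0.24.

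After 1 h of TGFb the set differed little from mock. At that time 1 of 46 genes rose and 1 fell, beside 3.7% of all loci that rose and 5.28% that fell (8.98% called), and the median change was 0.00 against -0.03 over all loci. E2F1 was the gene that rose (0.26 ± 0.062, limma adjusted p = 0.0227), to 120% of mock, with the values given above. The call was lost without mock replicate 1 (adjusted p = 0.0724) and without mock replicate 3 (0.102). POLA1, the catalytic subunit of the primer-making polymerase, was the gene that fell. It stood at 18.4, 18.0 and 17.8 FPKM in mock, at 14.5, 16 and 16.3 at 1 h and at 13.1, 13.1 and 12.3 at 12 h. Every 1 h library lay below mock, and replicate 1 was lowest (-0.20 ± 0.058, limma adjusted p = 0.0439). Without replicate 1 of TGFb 1 h E2F1 kept its call, with a change of 0.21, and was the only member called at 1 h. The POLA1 call was lost in 11 of the 15 fits that left out a library, with an adjusted p of 0.0835 without replicate 1 of TGFb 1 h and of 0.103 to 0.135 without a mock library.

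The comparison of 12 h with 1 h holds the agents and vehicle fixed and uses no mock library, though time in culture still differs. With vehicle 36 of 46 genes fell and none rose, beside 24.2% of all loci that fell and 16.8% that rose (41.0% called), and the median was -0.38 against -0.04 over all loci. CCNE2 fell by 1.01, E2F1 by 0.84, E2F2 by 0.82 and SLBP by 0.80 on the log2 scale (limma adjusted p from 9.92e-08 to 6.41e-05). With FT895 35 of 46 fell and none rose, beside 24.8% of all loci that fell and 13.5% that rose (38.2% called), and the median was -0.42 against -0.09. There E2F2 fell by 1.09, CCNE2 by 0.94, MCM10 by 0.83 and SLBP by 0.79 (limma adjusted p from 5.07e-07 to 9.72e-05). Without replicate 1 of TGFb 1 h, the library that stands apart, 35 fell with vehicle, beside 2999 of 12447 loci, and 38 with FT895, beside 3926. At 12 h against mock 38 then fell, beside 3775 of 12447 loci (46.9% called). The arms with and without FT895 share no library. A total of 34 genes fell in both arms, GINS1 and POLA2 passed with vehicle only, POLD3 passed with FT895 only and 9 genes in neither. GINS1 stood at 29.9, 23.5 and 24.8 FPKM in TGFb 1 h, highest in replicate 1. Over the alternatives 2 to 4 of the GINS genes fell with vehicle, beside 1805 to 4118 of the 12425 to 21386 loci tested. Across the 46 genes the changes in the 2 arms had a Pearson correlation of 0.87, a description over genes that share libraries within an arm, and it was also 0.87 over all loci tested.

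**Figure D3:**
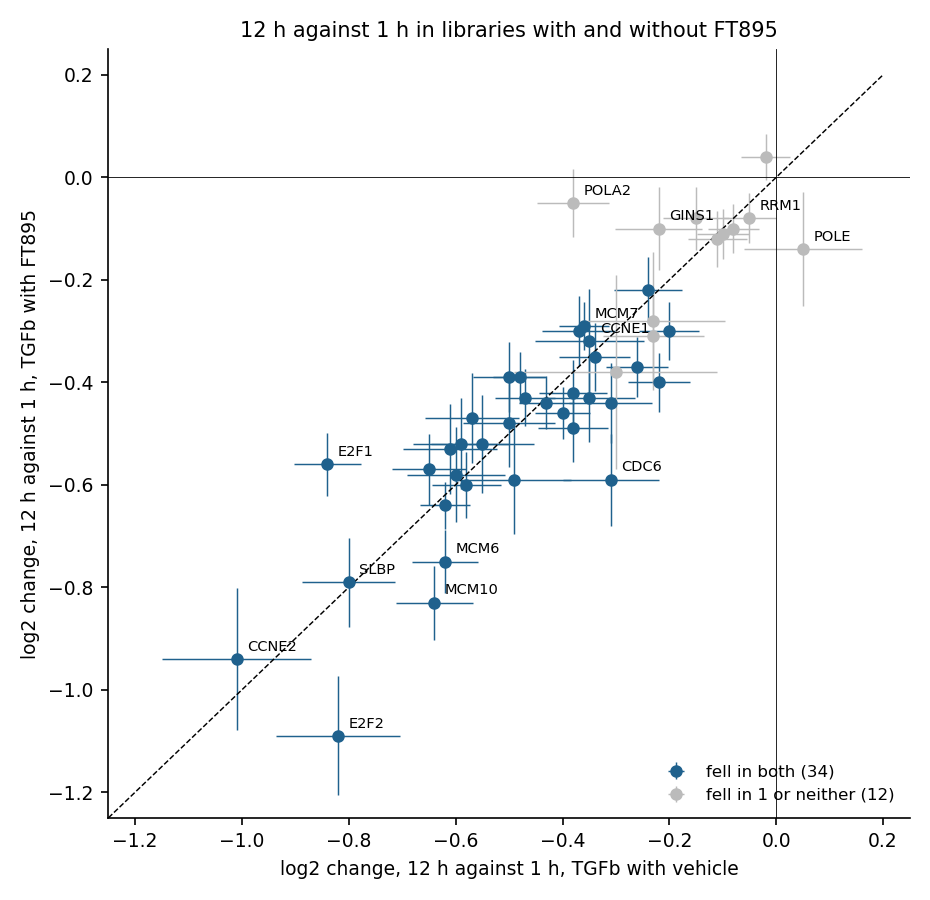
Log2 change from 1 h to 12 h of each gene with TGFb and vehicle (x axis) and with TGFb and FT895 (y axis), with bars of 1 SE and the line of equality dashed. The 34 genes that fell in both arms are blue, with CCNE2, E2F2, E2F1, SLBP and MCM10 at the lower left, and POLA2 lies farthest above the line.

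Addition of FT895 to TGFb gave no call in the set at either time. At 1 h 0 of 46 genes passed, beside 0.0722% of all loci (9 of 12467), with changes from -0.14 to 0.18, a smallest adjusted p of 0.35 and 3 genes at an unadjusted p under 0.05. At 12 h 0 of 46 passed, beside 0.016% of all loci (2 of 12467), with changes from -0.17 to 0.20, a smallest adjusted p of 0.611 and 2 genes at an unadjusted p under 0.05. A missed threshold does not show equal levels, but the 95% intervals bound the size: at both times all 46 lay within 0.5 of zero on the log2 scale, from -0.41 to 0.42 at 1 h and from -0.48 to 0.36 at 12 h. The median interval reached 0.14 on either side at 1 h and 0.15 at 12 h. Without replicate 1 of TGFb 1 h the count was also 0 at both times. Weighting the libraries by their spread gave 7 calls at 1 h (3 higher, 4 lower), beside 15.8% of all loci with the same weights, a share close to that in the set, and 0 at 12 h, beside 0.473%. The 7 were RFC4, CCNE1 and SLBP, higher by 0.20 to 0.27, and MCM2, POLA2, MCM5 and CHAF1A, lower, with changes of -0.19 to -0.10.

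Whether the effect of FT895 differed between 1 h and 12 h was tested as an interaction, and 0 of 46 genes passed, beside 0.168% of all loci (21 of 12467). Unadjusted p was under 0.05 in 3 genes, POLA2, E2F1 and CDC6. POLA2, the regulatory subunit of the primer-making polymerase, stood at 11.6, 12.4 and 11.7 FPKM in mock, at 9.70, 11.3 and 10.9 at 1 h and at 8.34, 8.20 and 7.18 at 12 h. With FT895 it stood at 9.43, 9.66 and 9.48 at 1 h and at 8.99, 9.52 and 9.05 at 12 h. The libraries with FT895 were the lower at 1 h and the higher at 12 h, without overlap between arms at either time. The difference between the effects was 0.34 ± 0.095 (limma adjusted p = 0.426), and POLA2 passed with weighted libraries (0.40, adjusted p = 0.027; 0.473% of all loci). For E2F1 the difference was 0.28 ± 0.088 (limma adjusted p = 0.514), and for CDC6 -0.28 ± 0.127 (adjusted p = 0.635).

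**Figure D4:**
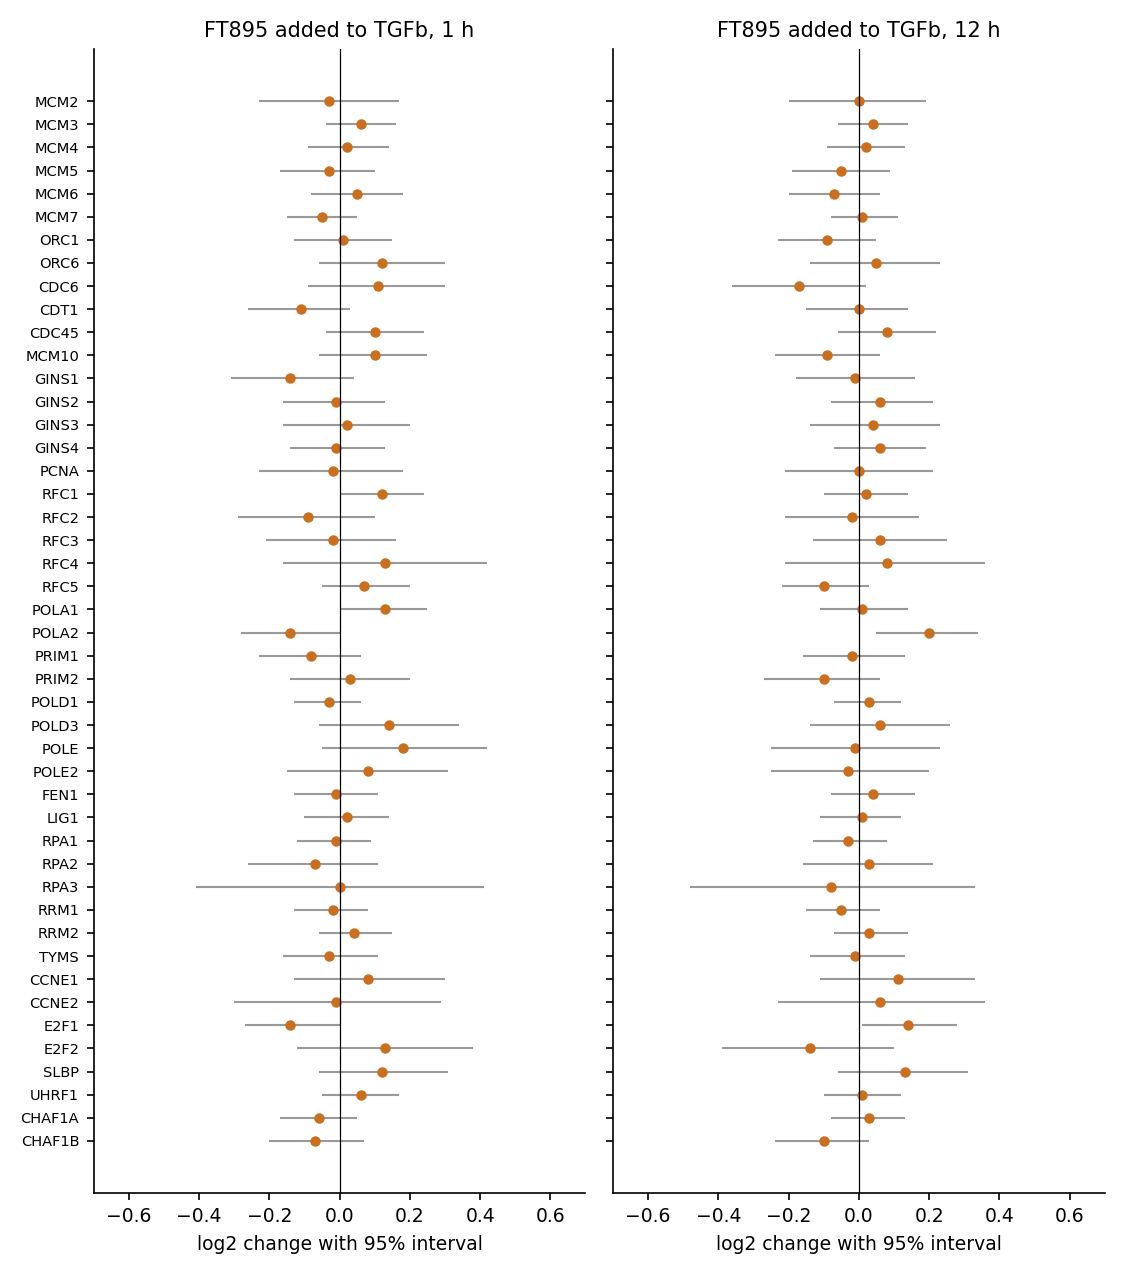
Log2 change of each of the 46 genes when FT895 was added to TGFb, at 1 h (left) and 12 h (right), with 95% intervals from limma. Points lie between -0.17 and 0.20, and POLA2 is the gene with the highest change at 12 h.

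Other genes of the same processes were counted from lists of genes outside the set. Of 19 other genes of origin licensing and firing, 13 fell and none rose at 12 h against mock, with a median of -0.37. Among them ORC5, another origin subunit, fell by 0.68 and TIPIN, a fork protection factor, by 0.60 on the log2 scale. Of 17 other synthesis and fork genes 7 fell and 2 rose, of 13 other nucleotide genes 3 fell and 1 rose, and of 12 other chromatin replication genes 6 fell. DSCC1, part of a loader for PCNA, fell by 0.68, as did UMPS, an enzyme of pyrimidine synthesis. DCTPP1, which hydrolyses dCTP and its modified forms, fell by 0.59, the histone chaperone NASP by 0.54 and RBBP4, a further subunit of CAF-1, by 0.41. POLD4, the smallest subunit of the lagging-strand polymerase, was 1 of the 3 genes that rose. POLD4 stood at 19.4, 19.3 and 18.7 FPKM in mock and at 30.3, 37.8 and 34.2 at 12 h, without overlap (0.80 ± 0.102, limma adjusted p = 2.19e-05). CTPS1, which makes CTP, and the topoisomerase TOP2A, both named after their values were seen, rose by 0.38 and 0.17. Together, 29 of these 61 genes fell and 3 rose, beside 24.5% and 14.2% of all loci. The count that fell was 22 with median-of-ratios scaling, beside 2057 of 12455 loci, and 22 without replicate 3 of TGFb 12 h, beside 2392 of 12440. The nucleotide list is near the share of all loci that fell, with 3 of 13. It had 7 that fell without replicate 1 of TGFb 1 h, beside 3775 of 12447 loci. With library weights it had 5, beside 4294 of 12467 loci, and with only the groups compared 5, beside 3486. The 7 synthesis and fork genes that fell became 3 of 17 with median-of-ratios scaling, close to the share of all loci (2057 of 12455). The 6 chromatin replication genes became 10 with library weights, beside 4294 of 12467 loci.

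The 21 other genes of G1 cyclins, their kinases and the E2F and RB families were mixed, with 9 that fell and 3 that rose at 12 h. Of all loci 24.5% fell and 14.2% rose, and the share of the list that rose was close to the latter. SKP2, which targets CDK inhibitors for degradation, fell by 0.59 and the repressor E2F8 by 0.55, while CCND1, cyclin D1, rose by 0.32 and E2F7, another repressor, by 0.35. At 1 h with vehicle E2F7 was lower than mock by 0.26 (limma adjusted p = 0.043). It stood at 10.7, 10.9 and 11.9 FPKM in mock and at 8.02, 9.54 and 10.0 at 1 h. The lowest of these is replicate 1, the library that stands apart. With FT895 at 1 h E2F7 stood at 11.1, 10.6 and 10.8, near mock. Of 8 genes of CDK inhibitors and MYC 3 rose and none fell at 12 h, beside the same shares of all loci. CDKN2B, the p15 inhibitor of CDK4 and CDK6, stood at 5.38, 4.73 and 5.45 FPKM in mock, at 4.39, 4.51 and 5.02 at 1 h and at 20.9, 18.6 and 20.4 at 12 h. Only the 12 h libraries were high, including 17.9, 19.0 and 19.0 with FT895 (1.76 ± 0.091 for vehicle against mock, limma adjusted p = 1.28e-09). CDKN2D, a related inhibitor, rose by 0.58.

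Of the same 8 genes 1 rose and 2 fell at 1 h, beside 3.7% of all loci that rose and 5.28% that fell. CDKN1A, the p21 inhibitor of CDK2, stood at 7.08, 6.25 and 6.02 FPKM in mock, at 13.5, 13.3 and 14 at 1 h and at 8.30, 8.95 and 8.95 at 12 h. It rose by 0.97 at 1 h (limma adjusted p = 3.2e-07) and was still higher than mock at 12 h, by 0.39. MYC, a growth-promoting transcription factor, stood at 104, 96.5 and 106 FPKM in mock, at 54.7, 61.8 and 63.9 at 1 h and at 103, 111 and 104 at 12 h. It fell by 0.76 at 1 h (limma adjusted p = 3.62e-06) and did not pass at 12 h (0.05, adjusted p = 0.586). CDKN1B, the p27 inhibitor, named after its values were seen, went from 16, 16 and 15.8 FPKM in mock to 13.1, 12.8 and 13.4 at 1 h (-0.27, limma adjusted p = 0.00995). None of the genes named from these lists was called for FT895 at 12 h.

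Genes of mitosis, listed for comparison, did not share the direction of the replication genes. Of 34, 16 rose and 1 fell at 12 h against mock, with a median of 0.18, beside 0 that rose and 35 that fell among the 46. Of all loci 14.2% rose and 24.5% fell in that comparison. PLK1, a mitotic kinase, stood at 50.6, 53.0 and 55.3 FPKM in mock and at 67.7, 72.3 and 73.9 at 12 h, without overlap (0.42 ± 0.056, limma adjusted p = 2.94e-05). ECT2, which directs the cleavage furrow, was the gene that fell (by 0.43). From 1 h to 12 h 20 mitosis genes rose and 1 fell with vehicle, and 14 rose and 1 fell with FT895, beside 16.8% and 13.5% of all loci that rose. Over the alternatives 11 to 26 rose with vehicle, the lowest with only the groups compared (beside 1383 of 12467 loci), and 13 to 21 with FT895. Of the 12425 to 21386 loci tested, 1383 to 2466 rose with vehicle and 1416 to 2208 with FT895. Median-of-ratios scaling, which moves the median of all loci at 12 h against mock from -0.08 to -0.01, gave 21 mitosis genes that rose and 1 that fell, and 32 of the 46 genes that fell with none that rose. With that scaling 2266 of 12455 loci rose and 2057 fell. The share of cells in each phase was not measured.

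**Figure D5:**
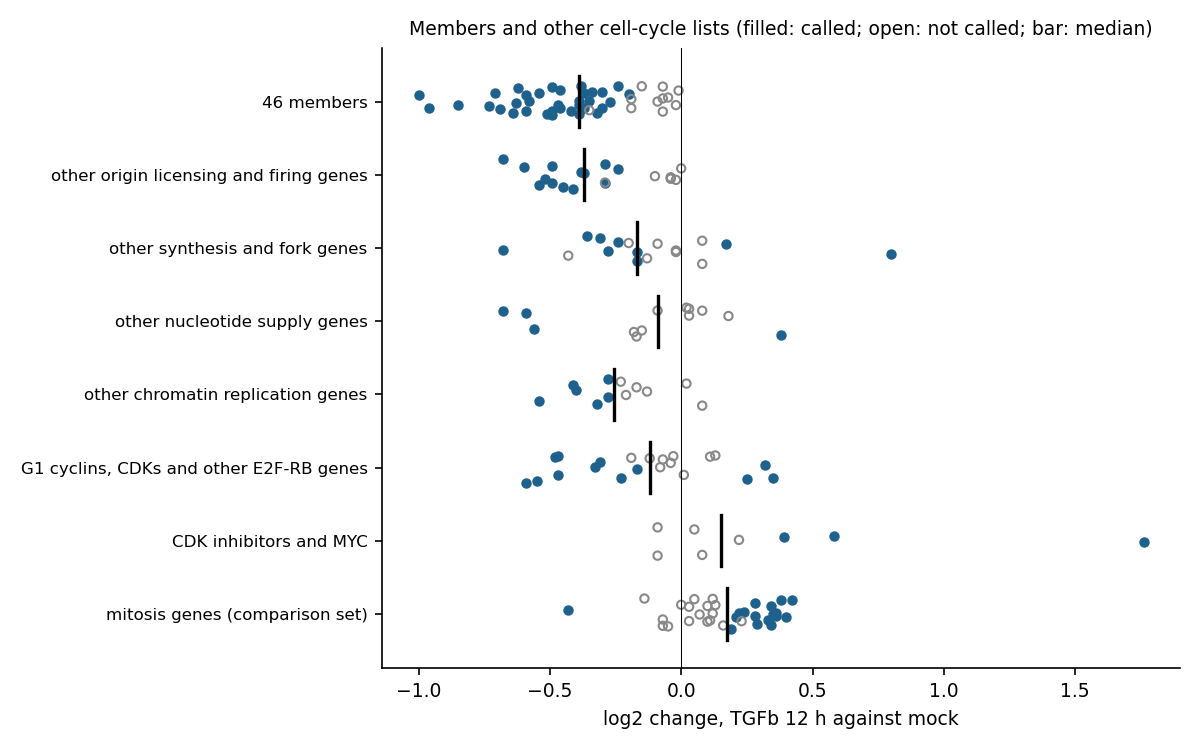
Log2 change at 12 h of TGFb against mock for the 46 genes and for 7 other lists, 1 point per gene, filled where called and open where not, with a bar at each median. The 46 genes have a median of -0.39 and the mitosis genes one of 0.18, and the point at 1.76 is CDKN2B.

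The promoter letters shown at the start were counted in windows of 250 bases before to 50 after the first listed start of each gene, on both strands. RefSeq windows were matched by symbol for 39 of the 46 genes, and 20 of these (51.3%) held at least 1 of the 4 E2F-type words. The share was 10.7% of 28 mitosis genes, 17.6% of 51 other replication genes, 5.68% of the 9214 tested genes with a window and 3.33% of all 27305 genes with one. CCAAT stood in 56.4% of the windows of the set, 71.4% of those of mitosis genes and 54.9% of those of other replication genes. It stood in 37.0% of tested genes with a window and in 35.7% of all. TTTGAA, the core of the cell cycle homology element, stood in 1 of 39 windows, that of RRM1, and in 67.9% of the mitosis windows. Its share was 9.8% of other replication genes, 9.17% of tested genes and 15.4% of all.

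E2F-type words stood in 17 of 30 windows of genes that fell at 12 h and in 3 of 9 windows of genes that did not pass. The 3 were GINS1, POLE and TYMS. SLBP, among the largest changes, had none in its whole window, and E2F1 and MCM6 had several. A match says that the letters are there, not that a factor binds them. A window without a match is not shown to lack E2F sites, since only the 4 exact words were searched.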

How the data were processed

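The authors deposited one table of FPKM values, 1 column per library, with 24880 loci, of which 4906 are unannotated. Per the submitters' processing notes, reads were handled with HISAT2 and StringTie on GRCh38. Versions, annotation release and strandedness are not stated in the labels. Every value column matched a sample. No pair of libraries was identical, and low values showed no step of 1 read, so depth stays unknown and no counting interval is given.

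A locus was tested if 3 or more of the 15 libraries reached 1 FPKM, which left 12467, and values entered as log2(FPKM + 1). On this scale the fold changes of low genes come out too small. R 4.3.3 and limma 3.58.1 were used to fit all 5 group means at once (lmFit and trended eBayes), giving 7 two-sided comparisons, each adjusted by Benjamini-Hochberg over all loci tested and called under 0.05. The fit was tested on simulated data. SE and 95% intervals are those of limma. Genes given in full follow a rule: the 8 largest falls at 12 h against mock, up to 4 called genes in other comparisons, the most abundant member of each complex, and the 2 largest changes and 5 landmark genes of other lists. Further members were named after their values were seen. Members and lists were chosen with earlier results of these data known. Pairing by replicate number was not seen: of 30 pairs of same-numbered libraries, 2 had deviations correlated above 0.1 (range -0.137 to 0.113). Low correlations cannot exclude that same-numbered libraries were handled together. The count and summed level of the proximal tubule markers are not reported here. Promoters are the first listed RefSeq start per symbol. Python 3.11.15 and pandas 2.3.3 were used.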

Additional observations from a re-analysis of the deposited data

How the results depend on the processing

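The calls and median changes of members and lists were recomputed under 22 alternatives, unlike the sums, the separation of libraries, the correlation and the promoter counts. At 12 h against mock 32 members were called under every setting and 8 under none, while 23.2 to 51.9% of all loci were called. Leaving out a library gave 33 to 38 calls there, beside 31.1 to 46.9% of all loci. From 1 h to 12 h it gave 35 to 37 with vehicle, beside 35.1 to 42.6%, and 33 to 38 with FT895, beside 31.4 to 47.6%. At 1 h against mock the 2 calls became 1 with median-of-ratios scaling, beside 9.12% of all loci, 9 with library weights (5 rose, 4 fell), beside 32.0%, 0 with only the groups compared, beside 2.99%, and 0 to 5 without a library, beside 3.29 to 12.2%. For FT895 at 1 h library weights gave 7 calls, beside 15.8% of all loci, and 1 for the interaction, beside 0.473%; leaving out any library gave 0 for both and for FT895 at 12 h. With replicate number as a block there was 1 call at 1 h against mock, beside 6.95% of all loci, where POLA1 was lost (adjusted p = 0.0645). In the 12 h comparisons the block gave 35, 36 and 35 calls, beside 38.1, 39.9 and 37.5% of all loci. Median-of-ratios scaling turned RRM1 to 0.07, RRM2 to 0.06, CCNE1 to 0.02, RPA1 to 0.01, GINS1 to 0.01 and POLD1 to 0.00 at 12 h against mock, none of them called, and POLD1 then rose from 1 h to 12 h with FT895 (0.13, adjusted p = 0.0422). Quantile normalization turned CCNE1 to 0.02. Without 1 library RRM1 ran from -0.03 to 0.01 (0.01 without mock replicate 1 or TGFb 12 h replicate 3), and RRM2 from -0.03 to 0.00 (without TGFb 12 h replicate 1). LIG1, CHAF1B and RFC4 lost their call with median-of-ratios scaling (adjusted p = 0.151, 0.0717 and 0.0787), as CHAF1B did with quantile normalization (0.0535) and RFC4 with no filter (0.0716). In the same comparison TYMS gained a call with quantile normalization (limma adjusted p = 0.0239), library weights (0.0117) and only the groups compared (0.0304). ORC6 (0.0112 and 0.01) and POLE (0.00645 and 0.00706) gained one with library weights and with only the groups compared. E2F1 at 1 h was lost with only the groups compared (0.112). The causes were not tested. With depth unknown, counting error could not be separated from other spread.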
